A study of Mus musculus with 36 samples.

Results

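The genes described here are 9 transcription regulators that direct B cell identity and the germinal centre: Ebf1, Pax5, Spib, Pou2af1, Bach2, Foxo1, Ikzf3, Bcl6 and Mybl1. They were taken by name, and every probe set (a group of short DNA probes for one transcript) annotated to one of them and to no other gene was used. That gave 23 of the 45037 probe sets and 9 of the 18193 named genes, measured in whole spleen RNA on 36 one-colour arrays. The 18 ART arrays are from arthritic mice and the 18 NON arrays from mice without arthritis. All are 4 month old F2 mice, and the series title describes the arthritic animals as deficient in the antagonist of the interleukin 1 receptor. The labels used here do not give the parental strains, or the genotype at that locus, the sex and the arthritis score of each mouse. One array is one spleen, so precision is limited by how many arrays there are.

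B cells are made in the bone marrow and mature in the spleen. Ebf1 and Pax5 commit precursors to the B lineage. The Ets factor Spib and the coactivator Pou2af1, which binds the octamer factors Oct1 and Oct2, act in B cell receptor signalling and in germinal centre formation. In antigen-activated B cells Bcl6 holds the germinal centre programme, Bach2 restrains plasma cell differentiation, Foxo1 supports the dark zone, the site of rapid division, and Ikzf3 tunes B cell receptor responses. Mybl1 is a Myb family factor known in germinal centre B cells and in male germ cells.

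Promoter windows are shown for Foxo1, Bach2 and Spib, which were closely correlated across the arrays, as described further on. Each window runs from 250 bases before to 50 bases after the annotated start (RefSeq, GRCm38.p6), is written 5′ to 3′ on the gene's strand, and lies at chr3:52268087-52268386 on the plus strand for Foxo1, chr4:32417185-32417484 on the plus strand for Bach2 and chr7:44532022-44532321 on the minus strand for Spib. The Bach2 window lies inside the gene, which spans 32238413 to 32586109, and so at an internal annotated start and not at the gene's outer 5′ end. Capitals mark the Ebf1 palindrome (TCCC and GGGA with 2 bases between them) and the CCAAT box (ATTGG when read on the other strand).
Foxo1: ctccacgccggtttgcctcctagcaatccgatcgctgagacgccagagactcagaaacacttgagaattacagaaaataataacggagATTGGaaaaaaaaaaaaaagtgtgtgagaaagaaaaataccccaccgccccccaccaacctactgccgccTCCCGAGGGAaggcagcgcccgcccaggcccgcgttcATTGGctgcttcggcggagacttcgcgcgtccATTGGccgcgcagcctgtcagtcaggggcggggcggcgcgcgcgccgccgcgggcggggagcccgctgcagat
Bach2: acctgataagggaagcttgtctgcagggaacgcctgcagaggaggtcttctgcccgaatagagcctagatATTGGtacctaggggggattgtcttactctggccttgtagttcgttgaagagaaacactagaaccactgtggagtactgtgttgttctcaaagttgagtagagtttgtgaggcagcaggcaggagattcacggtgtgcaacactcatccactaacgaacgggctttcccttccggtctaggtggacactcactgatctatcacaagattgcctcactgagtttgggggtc
Spib: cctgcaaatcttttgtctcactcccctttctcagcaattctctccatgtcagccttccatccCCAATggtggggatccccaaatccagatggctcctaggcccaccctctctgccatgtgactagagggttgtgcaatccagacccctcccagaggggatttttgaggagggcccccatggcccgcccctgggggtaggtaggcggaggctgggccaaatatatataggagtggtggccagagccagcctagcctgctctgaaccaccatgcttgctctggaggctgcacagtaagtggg
The table of promoter windows held 7 of the 9 genes. On either strand, the palindrome was found only in the Foxo1 window, as TCCCGAGGGA at position -92 from the annotated start, and it was present in 0.905% of all 32817 windows of this length. CCAAT occurred in the Foxo1 window at 3 places, in the Bach2 and Spib windows at 1 each and in the Pou2af1 window as 2 overlapping matches, against 37.4% of all windows. The GC box GGGCGG was found in the Foxo1, Pax5, Spib and Bcl6 windows and in 35.6% of all windows. The octamer ATGCAAAT (1.74% of all windows) and the forkhead site GTAAACA (3.65%) were in none of the members' windows. A match is a description of these letters and not of binding.

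The values are the authors' linear intensities from MAS5, in which the trimmed mean is 500 on every array. They were used as log2(intensity + 16), a scale that shrinks the fold change of a dim probe set. The median intensity of an array was between 110.6 and 183.2. Probe sets in the lowest 40% by mean were left out of the tests. Those of a gene are numbered here by their mean over all arrays, with probe set 1 the brightest. Of the members' 23 probe sets, 18 passed, and these stand for 8 genes. Both Mybl1 probe sets failed, probe set 1 with a mean of 6.489 against the limit of 6.491, as did 1 probe set each of Ebf1, Pax5 and Foxo1. The spleens carried B cell RNA: Cd79a, the signalling chain of the B cell receptor, averaged 13.12 ± 0.29 log2 in ART and 13.05 ± 0.25 in NON (SD, n = 18 each). The mean centred score of 5 B cell markers ranged from -0.52 to 0.54 in ART and from -0.43 to 0.36 in NON. Pancreas marker genes were high on 3 arrays, ART replicate 8 and NON replicates 5 and 6. On probe set 1, NON replicate 6 had the lowest NON level of Ebf1, Spib, Bach2, Foxo1 and Bcl6. The comparison of ART with NON and the ratios between genes were also run without these 3 arrays. The correlations, the marker relations, the spread and the differences between batches were not tested without the 3 together. The 18 hybridisation controls added to each sample divided the arrays into 3 batches: A with 9 ART and 4 NON arrays, B with 6 ART and 10 NON, and C with 3 ART and 4 NON. This division was chosen after the data were seen. Of 24 ways of clustering such controls, 4 gave it, and the range over all 24 is given with the results below.

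No regulator passed the test between ART and NON spleens. In limma with Benjamini-Hochberg adjustment over 27022 probe sets, 0 of the 18 tested members had an adjusted p under 0.05, against 0.0481% of all probe sets. At an unadjusted p under 0.05 there were 9 of 18, against 15.7% of all probe sets. Of those 9, Ebf1 probe set 1, Bach2 probe set 1 and probe set 2 and Foxo1 probe set 1 had lower means in ART. Pax5 probe set 1, Pou2af1, Ebf1 probe set 4, Foxo1 probe set 2 and Ikzf3 probe set 2 had higher means in ART. The count of adjusted p values under 0.05 was also 0 of 18 without the 3 arrays with pancreas markers. Ebf1 and Foxo1 each had probe sets on both sides. In bulk spleen, fewer B cells and less RNA per B cell cannot be told apart.

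Among the commitment factors, Ebf1 (chromosome 11, 44618100 to 45008096) and Pax5 (chromosome 4, 44524748 to 44710694) had means on opposite sides. On probe set 1, Ebf1 had an intensity of 469.3 at the lowest, 864 at the median and 2311 at the highest in ART, against 671.7, 1423 and 2158 in NON. The lowest ART array was replicate 14 and the highest was replicate 18, and only 3 of 18 ART arrays lay above the NON median, but the groups overlapped. The mean was 9.88 ± 0.67 log2 in ART and 10.35 ± 0.40 in NON (SD, n = 18 each), a difference of -0.47 (SE 0.17, limma adjusted p = 0.186). The other tested Ebf1 probe sets differed by -0.06 (probe set 2), -0.10 (probe set 3) and 0.26 (probe set 4).

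Pax5, which represses genes of other lineages, had intensities of 309.2, 476.2 and 775.7 (lowest, median and highest) in ART and 259.6, 381.2 and 689.9 in NON on probe set 1. The groups overlapped, with 17 of 18 ART arrays above the NON median. The difference was 0.30 (SE 0.12, limma adjusted p = 0.220). Its other probe set, probe set 2, was too dim to be tested with the rest and differed by 0.57 (SE 0.29) with no filter on low values, with a limma adjusted p of 0.460.

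Spib and Pou2af1, each with 1 probe set, had means on opposite sides. Spib (chromosome 7, 44525995 to 44532087) had intensities of 2167, 4860 and 6577 in ART and 4075, 4968 and 5915 in NON. The lowest ART arrays lay far below any NON array, while the medians were close. The difference was -0.15 (SE 0.11, limma adjusted p = 0.486). Pou2af1 (chromosome 9, 51213690 to 51240079) had 5333, 6988 and 9555 in ART and 4552, 6356 and 7543 in NON. The highest ART array was replicate 14, the array with the lowest Ebf1, and 10 of 18 ART arrays lay above the NON median. The difference was 0.16 (SE 0.08, limma adjusted p = 0.301). Blocking on the batch of the spike-in controls gave 0.23 (SE 0.06, adjusted p = 0.178).

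Bach2 and Foxo1 had lower means in ART on their brightest probe sets. Bach2 (chromosome 4, 32238413 to 32586109) had intensities of 1008, 2106 and 3453 in ART and 1579, 2735 and 3158 in NON on probe set 1. ART held the lowest and the highest array, and 5 of 18 ART arrays were above the NON median. The difference was -0.31 (SE 0.14, limma adjusted p = 0.272), and on probe set 2 it was -0.55 (SE 0.20, adjusted p = 0.169). Foxo1 (chromosome 3, 52268337 to 52350109), the forkhead factor that phosphoinositide 3-kinase signalling keeps out of the nucleus, had 868.1, 1851 and 2944 in ART and 1273, 2100 and 2826 in NON on probe set 1. The groups overlapped, and 6 of 18 ART arrays lay above the NON median. The difference was -0.29 (SE 0.13, limma adjusted p = 0.274), against 0.18 (SE 0.09, adjusted p = 0.301) on probe set 2.

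Ikzf3, which encodes Aiolos (chromosome 11, 98464610 to 98546031), had intensities of 1107, 2466 and 3827 in ART and 1464, 2184 and 3003 in NON on probe set 1. ART covered the wider range, with its lowest array at replicate 5. The difference was 0.07 (SE 0.13, limma adjusted p = 0.828), and on probe set 2, where 15 of 18 ART arrays were above the NON median, it was 0.41 (SE 0.14, adjusted p = 0.153). Bcl6 (chromosome 16, 23965050 to 23988866), the repressor that germinal centre B cells need, had 514.6, 857.7 and 1529 in ART and 684.8, 1008 and 1506 in NON on probe set 1. The groups overlapped, but 6 of 18 ART arrays lay below the lowest NON array. The difference was -0.22 (SE 0.13, limma adjusted p = 0.396), against 0.20 (SE 0.12, adjusted p = 0.403) on probe set 2. Mybl1 (chromosome 1, 9667407 to 9700439) had 36.6, 77.0 and 162.4 in ART and 25.3, 90.9 and 131.8 in NON on probe set 1, and with no filter differed by -0.07 (SE 0.17, limma adjusted p = 0.914).

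**Figure D1:**
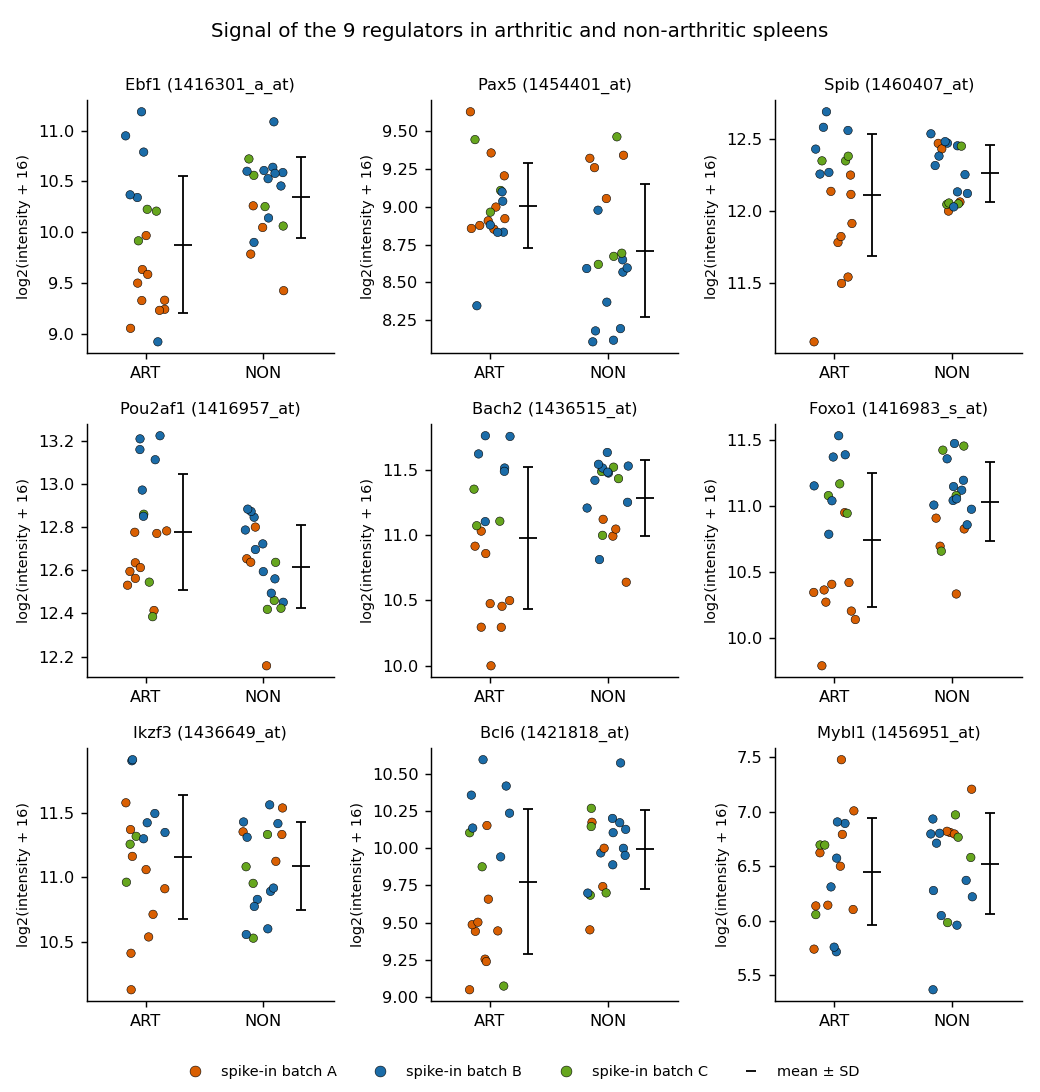
Level of each regulator on its brightest probe set, as log2(intensity + 16), with 1 point per array coloured by spike-in batch, ART left of NON, and bars for the mean and SD (n = 18 each). The groups overlap for all 9 genes, and the ART points of Ebf1, Spib, Bach2, Foxo1, Ikzf3 and Bcl6 extend below those of NON.

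**Figure D2:**
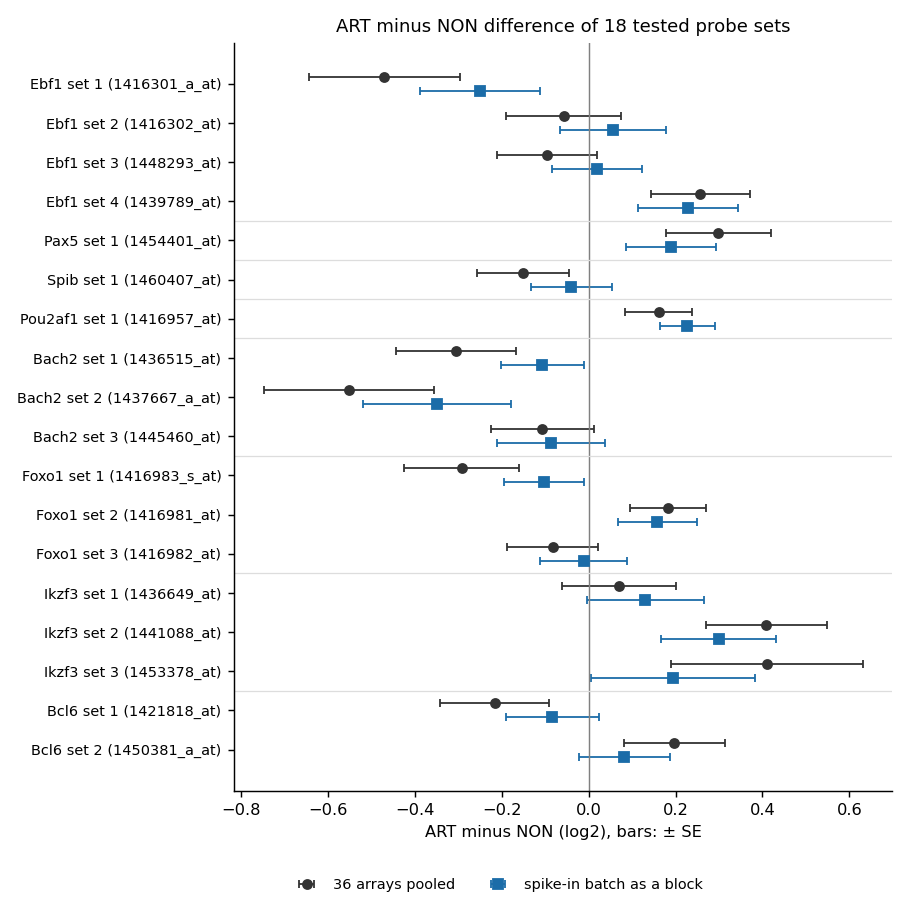
Difference ART minus NON (log2) of each tested probe set of the regulators, with bars of 1 SE from limma, for the 36 arrays pooled (circles) and blocked on the batch of the added controls (squares). Probe sets of Ebf1, Foxo1 and Bcl6 lie on both sides of 0, and no adjusted p is under 0.05.

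With the batch division used, the differences were smaller for most of these probe sets once batches were taken into account. When batch entered the fit as a block, 0 of 18 members were called (0.0% of all probe sets), and 3 of 18 had an unadjusted p under 0.05, against 11.9% of all probe sets. Ebf1 probe set 1 then differed by -0.25, Foxo1 probe set 1 by -0.10 and Bach2 probe set 1 by -0.11. In all 24 clusterings 0 of 18 members were called with the batch as a block. The count at an unadjusted p under 0.05 ran from 3 to 9 of 18, with a median of 7. The division used gave the lowest count, and with no block it was 9. Within batch A (0.0% of all probe sets called) and batch C (0.0%), 0 of 18 were called. Within batch B, 3 of 18 rose in ART, against 1.28% of all probe sets called higher and 2.73% called in either direction. These were Pou2af1 by 0.40 (SE 0.08, limma adjusted p = 0.0259), Foxo1 probe set 2 by 0.46 (SE 0.11, adjusted p = 0.0381) and Ikzf3 probe set 2 by 0.63 (SE 0.16, adjusted p = 0.0464). The count over all probe sets within batch B, 738, also moved with the arrays used. When ART replicate 14, 15, 16 or 18 was left out, no member was called, and 4, 5, 3 and 0 probe sets in all. Without ART replicate 17, 6 members were called and 2200 probe sets in all, and without ART replicate 10, 3 members and 1174. Without any single NON array of batch B, between 1 and 4 members were called, and 275 to 956 probe sets in all. The interaction of group with batch A called 0 of 18 (0.0% of all probe sets), with 10 of 18 at an unadjusted p under 0.05 against 16.2%, so a difference between batches was not shown.

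No regulator passed a test of the spread among ART arrays against that among NON arrays. A limma test of each array's absolute deviation from its group median called 0 of 18 members (0.0% of all probe sets), and 4 of 18 had an unadjusted p under 0.05, against 7.66% of all probe sets. The 4 were Bcl6 probe set 1, Foxo1 probe set 1, Bach2 probe set 1 and Ebf1 probe set 1, with deviations larger in ART by 0.22, 0.22, 0.21 and 0.25 log2. Taken within group and batch, 0 of 18 reached an unadjusted p under 0.05 (3.51% of all probe sets).

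Whether the regulators differed between batches depended on how the batches were drawn. An F test over the 3 batches, with the group as a term, called 13 of 18 members, against 48.1% of all probe sets. That is the highest count among the 24 clusterings, which called between 0 and 13 members with a median of 2. Over all 27022 probe sets they called between 0 and 12997, with a median of 1875. When the controls were not centred per array the F test called 3 of 18 members and 2938 probe sets in all. With the division used, 14 of 18 members differed between batch A and the remaining arrays (43.1% of all probe sets). Of these, 10 were lower in batch A (18.3% of all probe sets) and 4 were higher (24.8%). Foxo1 probe set 1 differed by -0.68 log2 (SE 0.09, limma adjusted p = 4.16e-07), Bach2 probe set 1 by -0.70 (SE 0.10, adjusted p = 6.94e-07) and Ebf1 probe set 1 by -0.77 (SE 0.14), while Pax5 probe set 1 differed by 0.35.

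Within ART spleens alone, Spib had intensities of 2167 to 4848 on the batch A arrays and 4872 to 6577 on the other ART arrays. Bach2 probe set 1 had 1008 to 2075 on batch A and 2136 to 3453 on the others. The 2 sets of ART arrays did not overlap for either gene, and the share of all probe sets that separate in this way was not counted. In NON the ranges did overlap. Spib had 4075 to 5648 on batch A and 4158 to 5915 on the others, and Bach2 probe set 1 had 1579 to 2210 and 1782 to 3158. The batch A minus rest test within ART called 10 of 18 members (29.6% of all probe sets), all lower (13.8%). Within NON it called 9 of 18 (26.6% of all probe sets), of which 5 were higher (16%) and 4 lower (10.6%). The ratio of the 3′ to the 5′ Gapdh control, which reads RNA integrity and labelling, was 0.751 ± 0.059 in batch A (SD, n = 13), 1.004 ± 0.091 in batch B (n = 16) and 0.911 ± 0.061 in batch C (n = 7). With this ratio as a covariate in the comparison of ART with NON, 0 of 18 members were called (0.0074% of all probe sets), and 3 of 18 had an unadjusted p under 0.05, against 11%. Its part in the difference between batches was not tested. The study clustered its arrays to find subpopulations of arthritic mice, and the labels used here do not say which mouse belongs to which. Such subpopulations and the batches cannot be told apart here.

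**Figure D3:**
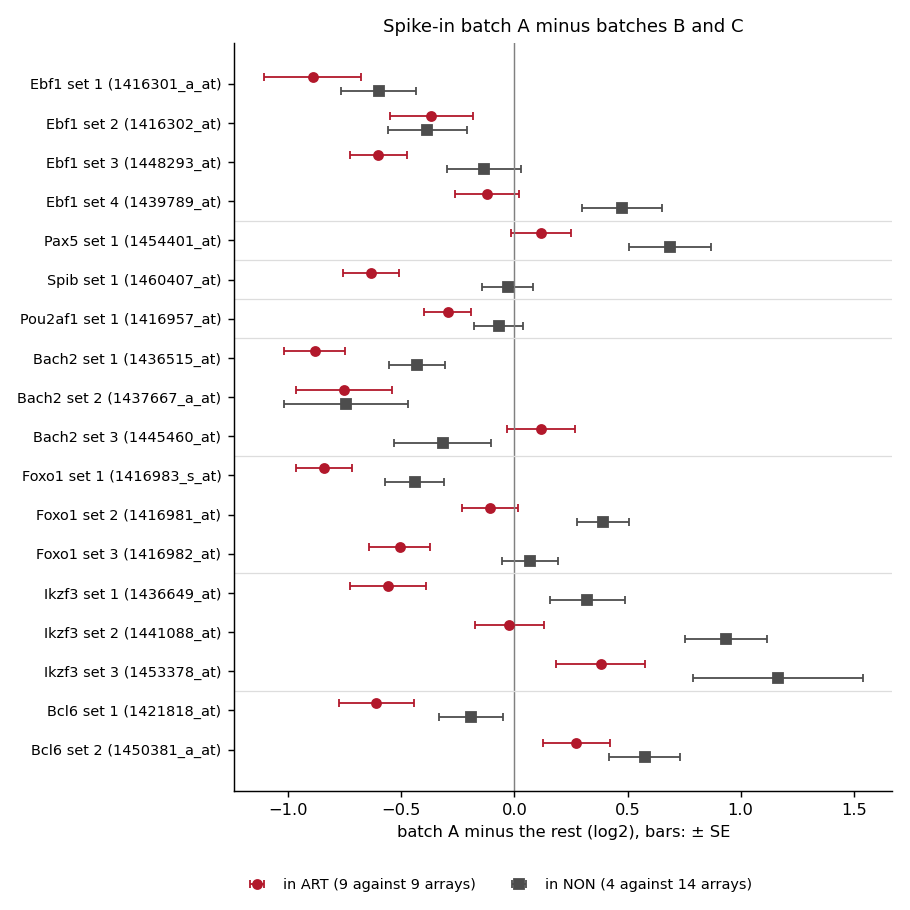
Difference (log2) between spike-in batch A and the other arrays for each tested probe set, with bars of 1 SE from limma, within ART (circles, 9 arrays against 9) and within NON (squares, 4 against 14). Probe set 1 of Ebf1, Bach2 and Foxo1 lies below 0 in both groups, while Ikzf3 probe set 1 lies below 0 in ART and above 0 in NON.

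Probe sets of one gene did not always rank the arrays alike. Over 36 arrays, 8 of 25 pairs of probe sets of the same gene had a Pearson correlation with an adjusted p under 0.05 (permutation test, Benjamini-Hochberg over the 25 pairs), and 7 of 25 by Spearman's rho. After removing group and batch means, 7 of 25 passed. For Ebf1, probe set 1 and probe set 2 had r = 0.82 and rho = 0.82, while probe set 1 and probe set 4 had r = -0.03. The brightest Bach2 probe sets had r = 0.72, the Pax5 pair 0.64 and the Mybl1 pair 0.42. Foxo1 probe set 1 followed probe set 3 (r = 0.70) more than probe set 2 (r = 0.16). The Bcl6 pair had r = -0.09. With group and batch means removed, r was 0.69 for that Foxo1 pair and 0.48 for the Bcl6 pair.

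Most of the regulators varied together across the spleens. On the brightest probe set of each of the 8 tested genes, 19 of 28 pairs had an adjusted p under 0.05 for Pearson's r (permutation test, adjusted over the 28 pairs), all positive, and 19 of 28 for Spearman's rho. The arrays share the scaling and the marker content of a whole spleen. The share of other gene pairs past this threshold was not computed, so the count is not shown to be particular to the regulators. Bach2 and Foxo1 were the closest pair, with r = 0.79 and rho = 0.77 (permutation p = 1e-05, the smallest that 100000 permutations can give). Spib with Foxo1 had r = 0.74 and rho = 0.71, and Bach2 with Bcl6 r = 0.74 and rho = 0.70. Ebf1 had r = 0.72 with both Foxo1 and Bach2. After removing group and batch means, Bach2 with Foxo1 had r = 0.42, Spib with Foxo1 0.55 and Bach2 with Bcl6 0.53. These are the lowest values over the 24 clusterings, whose medians were 0.71, 0.68 and 0.65.

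The number of pairs past the threshold changed with the arrays used. It was 19 of 28 within ART and 1 of 28 within NON, where Ebf1 with Bach2 had r = 0.88, and the difference between the groups was not tested. It was 12 within batch A, 3 within batch B and 0 within batch C, where Pax5 with Spib reached an adjusted p of 0.05 (exact permutation test, 7 arrays) and not below it, and 20 with group and batch means removed (19 to 21 over the 24 clusterings). Leaving out the 2 arrays farthest from the median of one gene left 16 of 28, and Pou2af1 with Bach2, Pou2af1 with Foxo1, Bach2 with Ikzf3 and Foxo1 with Ikzf3 no longer passed. On the brightest probe sets Pax5 stood apart in the pooled data, with r from -0.32 to 0.32 with the others, and with group and batch means removed from 0.33 to 0.65. For Pax5 with Spib, r was 0.01 pooled and 0.65 with those means removed. That rise rests on the division used: over the 24 clusterings r for this pair ran from 0.11 to 0.65 with a median of 0.19, and with controls not centred per array Pax5 had r from -0.16 to 0.45 with the others.

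The correlations also depended on the probe set. With the mean of all tested probe sets of each gene, 15 of 28 pairs passed. Bach2 with Bcl6 then had r = 0.36 (permutation test, adjusted p = 0.0558) and Spib with Ikzf3 r = 0.11, against 0.64 on the brightest probe sets. Pax5 with Ikzf3 had r = 0.73 (permutation test, adjusted p = 9.3e-05), against 0.32.

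**Figure D4:**
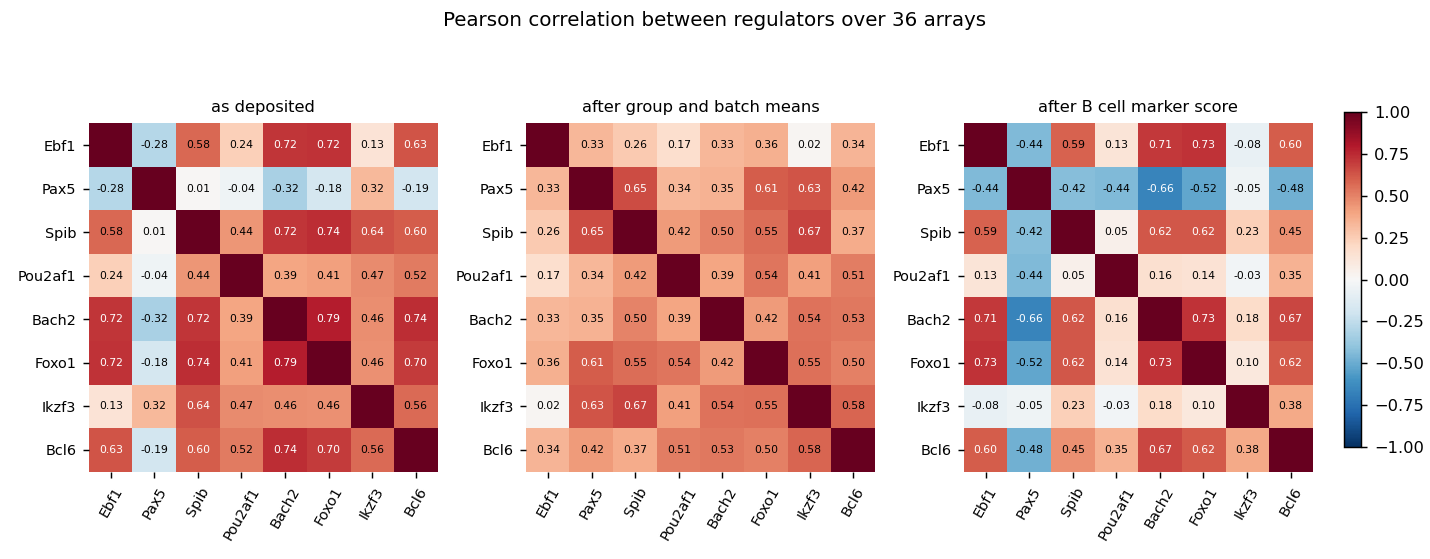
Pearson correlation between each pair of the 8 tested regulators over 36 arrays, on the values as deposited, with group and batch means removed, and with the B cell marker score removed. In the left panel Bach2 with Foxo1 has the highest value (0.79), and Pax5 is positive with all others only in the middle panel, which depends on the batch division used.

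Some ratios between the regulators differed between ART and NON. The share that passes among ratios of other gene pairs was not computed, so the counts below are not shown to be particular to these genes. For each array the log2 ratio of a pair of genes was taken, which a scaling of the whole array leaves nearly the same, and 14 of the 28 ratios differed between the groups at an adjusted p under 0.05 (two-sided permutation test with 100000 permutations, adjusted over the 28 ratios, which share genes and arrays). Permuting labels within batches left 8, all among the 14, and 5 to 14 over the 24 clusterings. Pou2af1 took part in 5 of these 8, and those 5 passed within batches in 24 of 24 clusterings.

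Relative to Foxo1, Pou2af1 was higher in ART by 0.45 log2 (permutation test, adjusted p = 0.0035, and 0.00924 within batches), with 15 of 18 ART arrays above the NON median. Relative to Bach2 it was higher by 0.47 (adjusted p = 0.0035, and 0.0153 within batches), with 17 of 18 ART arrays above. Relative to Bcl6 it was higher by 0.38 (adjusted p = 0.0035, and 0.0163 within batches), in 14 of 18. The differences kept their sign inside each batch: for Pou2af1 over Foxo1 batches A to C gave 0.44, 0.31 and 0.20, and for Pou2af1 over Bach2 0.48, 0.24 and 0.29.

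Ebf1 relative to Pou2af1 was lower in ART, with a difference of -0.63 (permutation test, adjusted p = 0.0035, and 0.0153 within batches), with 3 of 18 ART arrays above the NON median. Batches A to C gave -0.52, -0.48 and -0.39. Spib relative to Pou2af1 was also lower, with a difference of -0.31 (adjusted p = 0.00885, and 0.0213 within batches), and batches A to C gave -0.51, -0.25 and 0.10. The remaining 3 of the 8 held Pax5. Ebf1 relative to Pax5 differed by -0.77, Pax5 relative to Foxo1 by 0.59 and Pax5 relative to Spib by 0.45, and they passed within batches in 23, 23 and 22 of the 24 clusterings. A ratio shows that a pair changed unequally and not which of its genes moved.

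Some of these ratios rest on the probe set. With the mean of all tested probe sets of each gene in place of the brightest, 17 of 28 ratios passed, 13 of them shared with the brightest probe sets, and 10 passed within batches. Pou2af1 relative to Bcl6 was not among the 17, and Ebf1 relative to Pax5 differed by -0.39 (permutation test, adjusted p = 0.0410) and did not pass within batches. Within batches, Pou2af1 relative to Bcl6 passed on gene means (0.23, adjusted p = 0.0414, permutation test) and Pax5 relative to Foxo1 did not (adjusted p = 0.112). Pou2af1 relative to Foxo1 differed by 0.23 on gene means, against 0.45 on the brightest probe sets. Ebf1 relative to Pou2af1 differed by -0.25 against -0.63, and Pou2af1 relative to Bach2 by 0.48 against 0.47. Probe set 2 of Foxo1 and of Bcl6 had higher means in ART, by 0.18 and 0.20, and Pou2af1 by 0.16. Ratios on those probe sets were not tested. On the brightest probe sets, leaving out 1 array at a time left between 9 and 16 of 28, with the lowest count without NON replicate 14. Without the 3 arrays with pancreas markers it was 15. With 1 array left out, the adjusted p of Pou2af1 relative to Foxo1 lay between 0.0014 and 0.0084.

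**Figure D5:**
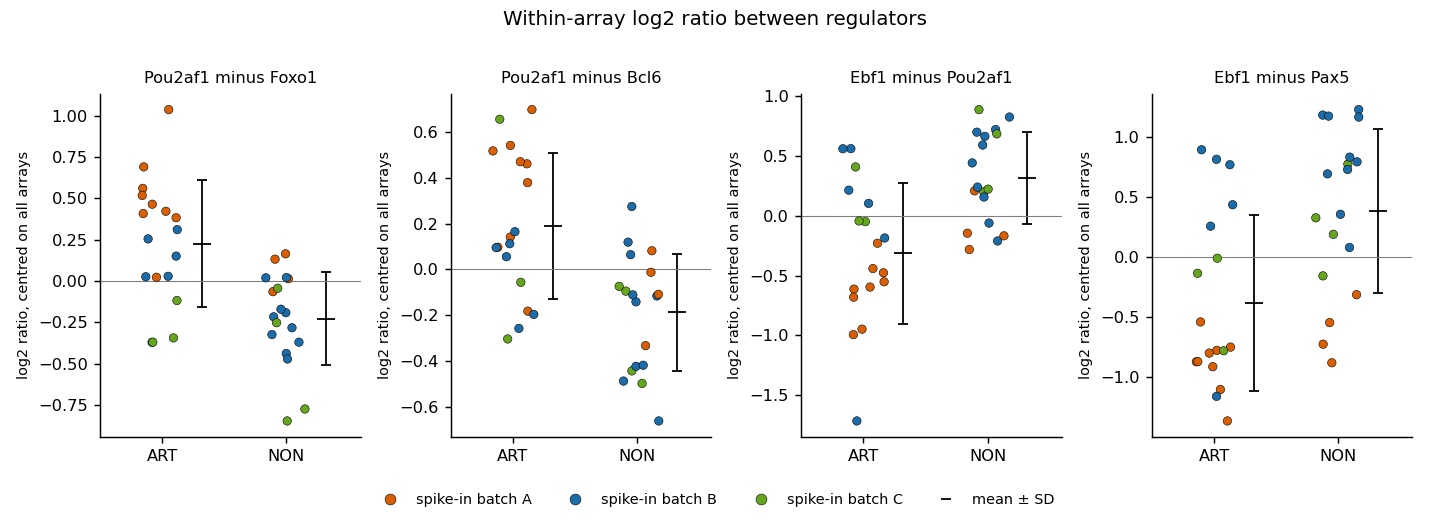
Within-array log2 ratio of 4 pairs of regulators, centred on the mean of all arrays, with 1 point per array coloured by spike-in batch, ART left of NON, and bars for the mean and SD (n = 18 each). On the brightest probe sets, Pou2af1 over Foxo1 and over Bcl6 is higher in ART and Ebf1 over Pou2af1 and over Pax5 is lower. The groups overlap in each panel.

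The regulators also followed marker genes of other spleen cells. The share of other genes with such relations was not computed. Of 72 relations between the 8 genes and 9 measures (8 marker scores and the Gapdh 3′ to 5′ ratio), 45 had an adjusted p under 0.05 for Pearson's r (permutation test). The B cell score went with 7 of the 8 genes, most with Ikzf3 (r = 0.79, rho = 0.80, and 0.79 with group and batch means removed), then Spib (r = 0.67) and Pou2af1 (r = 0.61). Ebf1 had r = 0.23 with it (adjusted p = 0.215, permutation test). The T cell score also went with 7 of the 8 genes, all but Pax5. Its r was above that of the B cell score for Spib (0.73), Bcl6 (0.69), Bach2 (0.69), Foxo1 (0.68) and Ebf1 (0.49), and that difference was not tested. With group and batch means removed, the order was reversed for Spib (0.68 against 0.78 for the B cell score) and Foxo1 (0.71 against 0.74). It was kept for Bcl6, Bach2 and Ebf1. Foxo1 had r = 0.81 with the stroma score and 0.73 with the Gapdh ratio, and Bach2 0.71 and 0.65. With the means removed, Foxo1 had 0.56 and 0.20, and Bach2 0.32 and -0.10. Bach2 and Bcl6 ran against the monocyte and macrophage score (r = -0.76 and -0.74), and Pou2af1 against the erythroid score (r = -0.73). With group and batch means removed these values were -0.31, -0.56 and -0.67. The stroma score averaged -0.23 ± 0.41 in ART and 0.23 ± 0.40 in NON, the T cell score -0.01 ± 0.39 in ART and 0.01 ± 0.27 in NON, and the B cell score 0.04 ± 0.28 in ART and -0.04 ± 0.23 in NON (SD, n = 18 each). For the other lists the difference ART minus NON was 0.07 for plasma cells, 0.07 for neutrophils, 0.04 for NK cells, 0.10 for monocytes and macrophages, -0.15 for erythroid cells, -0.11 for pancreas and -0.63 for fat. Apart from the B cell and T cell scores, whose fits follow, the part of these scores in the results was not tested.

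With the B cell score as a covariate, 0 of 18 members were called in the comparison of ART with NON (0.255% of all probe sets), and 9 of 18 had an unadjusted p under 0.05, against 18.6%. Foxo1 probe set 1 differed by -0.38 (SE 0.11, limma adjusted p = 0.0785), Bach2 probe set 1 by -0.39 (adjusted p = 0.0905), Ebf1 probe set 1 by -0.53 (adjusted p = 0.101) and Spib by -0.24 (adjusted p = 0.101). With the T cell score as a covariate, 0 of 18 were called (0.196% of all probe sets), and 10 of 18 had an unadjusted p under 0.05, against 18.0%. Correlations among the regulators after removing the B cell score passed for 17 of 28 pairs, of which 11 were positive.

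The genes whose pattern over the 36 arrays was closest to each regulator, by Pearson's r with group and batch means removed among 12427 tested genes, are given as a description for the batch division used. For Spib they were Blk, a Src kinase of the B cell receptor, with r = 0.80, the tetraspanin Cd37 with 0.79 and the inhibitory receptor Cd72 with 0.78. Bach2 was closest to Rasgrp1 (0.86), an activator of Ras in lymphocytes, Cd55 (0.79), which inhibits complement, and Tnfrsf13c (0.77), the receptor for BAFF, a B cell survival factor. Foxo1 was closest to the kinase Pim2 (0.79), Ralgps2 (0.78) and Gimap5 (0.78), a lymphocyte survival factor. Ikzf3 had Arhgap4 (0.86), Acap1 (0.84) and Ablim1 (0.83), Bcl6 had Trps1, Zbtb18 and Dock10 (0.78 each), Pou2af1 had Appl1, Csnk1g3 and Dock10 (0.79 each), and Pax5 had Sec31a (0.76), Sash3 (0.75) and Clu (0.75). Ebf1 had Srrm2 (0.84), Ankhd1 (0.83) and Brd2 (0.82), but its pooled r was 0.16, 0.38 and -0.01 with these. The pooled r was also low for Bach2 with Cd55 (0.19) and for Pax5 with Clu (0.17). For the other pairs listed it was 0.49 or more. Without ART replicate 14, which had the highest actin 3′ to 5′ ratio of all arrays (2.74), the closest genes of Ebf1 were Srrm2 (0.77), Bptf (0.74) and Rundc3b (0.74).

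Genes around these regulators were read from 5 lists, on the brightest probe set of each gene. None of them held a called gene between ART and NON, alone, with the batch as a block or with the B cell score, against 6 of 12427 genes higher and 0 lower in the comparison without covariates. For the targets of Ebf1 and Pax5 the fit with the B cell score can say little. That score is the mean of 5 of these same targets, Cd79a, Cd79b, Ms4a1, Cd22 and Blk. Of 18 tested other B cell transcription factors, 9 had positive and 9 negative differences, with a median of 0.0005 against -0.0023 over all genes. The Ets factor Spi1 differed by 0.26 (SE 0.08, limma adjusted p = 0.122) and Foxp1 by -0.26. Of 17 tested targets of Ebf1 and Pax5, 12 were positive and 5 negative (median 0.0565). Among them Cxcr5, the follicle homing receptor, differed by 0.24 (limma adjusted p = 0.210). Igll1, of the surrogate light chain, differed by 0.69 (SE 0.29, adjusted p = 0.239), and by 0.41 with the batch as a block. It was dim, and passed the filter limit of 6.491 through its ART level, with a mean of 7.01 in ART and 6.32 in NON.

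Of 17 tested germinal centre effectors, 8 were positive and 9 negative (median -0.0296). Bcl7a differed by 0.28 (SE 0.08, limma adjusted p = 0.0952) and Polh, a DNA polymerase used in somatic hypermutation, by -0.26. Of the 10 plasma cell genes, which Bach2 and Bcl6 restrain, 8 were positive and 2 negative (median 0.1137), with Fkbp11 at 0.34 (adjusted p = 0.150), Xbp1 at 0.11 and the elongation factor Ell2 at -0.21. Of 15 tested relatives of the regulators, 5 were positive and 10 negative (median -0.0162). Zbtb20 differed by -0.53 (SE 0.18, limma adjusted p = 0.163), Foxo4 by -0.22 and Foxo3 by -0.23. With the batch as a block these differences were -0.24, -0.21 and -0.13. The 8 regulators themselves had 3 positive and 5 negative differences, with a median of -0.1834.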

How the data were processed

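Spleen RNA of 36 mice (18 ART, 18 NON) was extracted with Trizol and hybridised as biotin-labelled target to one-colour Affymetrix arrays, per the labels' protocols. The deposited intensity values are from MAS5, per the submitters' processing notes, whose version was not given in the sources used here. A trimmed mean (2% off each end) of 500 on every array was found in the values. From these, log2(intensity + 16) was computed with pandas 2.3.3, numpy 2.4.6 and scipy 1.17.1 in Python 3.11.15, and figures were drawn with matplotlib 3.10.9. The 64 control probe sets were set aside, and probe sets at or above the 40th percentile of the mean were tested with limma 3.58.1 (trended eBayes) in R 4.3.3, checked on simulated data. The threshold was an adjusted p of 0.05 (Benjamini-Hochberg). The comparison was ART with NON, with no covariate. In GEO's platform annotation 34945 probe sets name 1 gene and 932 name several, and 34741 of the single-gene ones matched the RefSeq gene table. Each gene is represented by its brightest probe set. No pair of arrays held identical values.

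Batches came from Ward clustering into 3 groups of 18 hybridisation control probe sets, centred per array and per probe set. The 24 clusterings varied the pseudocount, the set of controls and the centring. The one used was picked after the data were seen because it matched a division already described for these arrays. Correlations and ratios were tested with 100000 two-sided permutations. Marker scores are means of centred log2 levels over 10 marker lists.

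All members are named with all their probe sets, with the 3 nearest genes each, and from each related list up to 4 genes with the smallest p. The members, the 5 related lists, the marker lists and the tests were chosen with earlier results of these data known. Alternatives were other pseudocounts, filters, normalization, tests, covariates, blocks and batches, and leaving out each array. Those added after the data were seen are the other clusterings, the combined covariates, the interaction, the batch A contrast, all alternatives for the ratios, leaving out each array for the correlations and within batch B, and the nearest genes without ART replicate 14.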

Additional observations from a re-analysis of the deposited data

How the results depend on the processing

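The count of regulator probe sets called between ART and NON was 0 in every alternative tried (of 18, but of 19 with a pseudocount of 1, 23 with no filter and 8 gene means) except within batch B, where it was 3 of 18, and it was 0 to 0 with each array left out. The 3 were Foxo1 probe set 2 (0.4617), Ikzf3 probe set 2 (0.6312) and Pou2af1 (0.3975). The count over all probe sets, 13 of 27022, moved more. It was 0 with no filter, with no trend, with the Wilcoxon rank-sum test, with the batch as a block (also with the B cell score, with the Gapdh ratio or with controls not centred per array) and within batches A and C. It was 1 after quantile normalization, 2 with the Gapdh ratio, 53 with the T cell score, 69 with the B cell score, 236 without the 3 arrays with pancreas markers, 738 within batch B and 0 to 389 with each array left out. The causes were not tested.

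The labels used here state no pairing of ART with NON arrays by replicate number. Of the same-number pairs, 11 of 18 had deviations correlated over 0.1 (range -0.228 to 0.473). Only 2 of 18 ART arrays correlated best with their own number. These values were not tested and do not decide whether the numbers pair the samples. With the replicate number as a block, 369 probe sets were called in all and 0 of 18 regulators, 10 of 18 at an unadjusted p under 0.05.

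The batch F test called 3 of 18 with controls not centred per array (2938 probe sets in all), against 13 (12997 in all). Correlations past the threshold, 19 of 28, were 1 within NON, 12, 3 and 0 within batches A, B and C, 15 on gene means, and 17 to 20 with each array left out. Ratios past it, 14 of 28, were 8 within batches and 9 to 16 with each array left out.

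The differences that changed sign, none past the threshold, were these. Ikzf3 probe set 1 was -0.0445 with the B cell score and -0.0195 with that score and the block. Ebf1 probe set 2 was 0.0014 with the Gapdh ratio, 0.0558 with the block, 0.0133 with block and B cell score and 0.0184 with block and Gapdh ratio. Ebf1 probe set 3 was 0.0024, 0.0199 and 0.0166 with the Gapdh ratio, the block and both. Within batch A, Ikzf3 probe sets 1 to 3 were -0.4597, -0.3293 and -0.3042, Pax5 probe set 1 was -0.177, Foxo1 probe set 2 was -0.177, Ebf1 probe set 4 was -0.1721 and probe set 2 was 0.0585, Bcl6 probe set 2 was -0.1141 and Bach2 probe set 3 was 0.1992. Within batch B, Bach2 probe set 1 was 0.1539, Foxo1 probe sets 1 and 3 were 0.0887 and 0.1608, Spib was 0.1462, Bcl6 probe set 1 was 0.2116 and Ebf1 probe sets 2 and 3 were 0.1082 and 0.2577. Within batch C, Ebf1 probe set 3 was 0.0017, Foxo1 probe set 3 was 0.2219 and Spib was 0.2082. Leaving out single arrays reversed none of the 18. Dim probe sets, both of Mybl1 included, limit what the arrays can show.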
